A study of Mus musculus with 7 samples.

Results

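Matrix glycoproteins and proteoglycans are the secreted, non-collagen proteins that fibroblasts lay down around themselves. The 40 genes described here were chosen by name, as secreted matrix genes other than collagens, and all 40 had a row among the 49382 genes of the expression table. They fall by role into 7 genes of fibronectin and the matricellular proteins, 12 of elastic fibres and microfibrils, 10 of basement membrane, 7 small leucine-rich proteoglycans and 4 other matrix proteins. RNA was measured in cultured mouse embryonic fibroblasts (MEFs) in 7 RNA-seq libraries, 1 of untreated control cells and 1 for each of 6 stresses. The cells were wild type in every library, were grown out of minced embryos of E13.5 to E14.4 without the head and the red tissue, and were used between passages 3 and 7. Oxidative stress was 10 µM arsenite for 3 h, osmotic stress 100 mM NaCl for 3 h, ER stress 1 µM thapsigargin for 10 h, glucose depletion 10 h, glutamine depletion 10 h, and hypoxia 0.1% oxygen for 10 h. The sources used here do not say whether the 7 cultures came from the same embryos.

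Matrix genes are a large part of what a fibroblast secretes. Fibronectin forms fibrils that bind integrins, elastin is deposited on fibrillin microfibrils, laminins, nidogens and perlecan build the basement membrane, and small leucine-rich proteoglycans coat collagen fibrils. Matricellular proteins such as SPARC, tenascin C and the thrombospondins sit in the matrix and modulate how cells attach to it. All of these proteins fold in the endoplasmic reticulum (ER), where thapsigargin blocks the calcium pump and so sets off the unfolded protein response.

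Levels are given as TPM, transcript abundances scaled for transcript length and for the total of the library, so that levels of different genes can be set side by side. A change is log2(TPM + 1) of a condition minus that of the control library, and a gene is said to have risen or fallen where this change was larger than 2-fold, that is beyond 1 or -1. The same was counted over the 12909 genes whose mean over the 7 libraries reached 2 TPM, which is the background given beside each count and which held all 40 matrix genes. With 1 library per condition there is no replicate error, no test and no p-value, every change rests on the same control library, and a stress cannot be told apart from the culture or library it was measured in. The treatments of 3 h and 10 h also differ in duration. The depth of the libraries is unknown, since TPM keeps no read counts.

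Marker genes of fibroblasts were present in every library, most of them at high levels. In the control, Sparc ranked 17 and Fn1 ranked 36 by TPM among the 12909 genes. The lowest of the 9 markers was Pdgfra, at rank 4997 and 29.9 TPM in the control, below Des of the muscle list at 35.7 TPM. The 9 fibroblast markers, which include Fn1 and Sparc, summed to between 10732 TPM in ER stress and 20251 TPM in hypoxia. All 4 epithelial markers and all 4 erythroid markers were below 1 TPM in every library. The 4 macrophage markers summed to between 6.13 and 11.7 TPM, with Ptprc and Adgre1 below 1 TPM in every library, and the 4 endothelial markers summed to between 1.80 and 4.84 TPM. Of the muscle list, Myod1, Myog and Myf5 were below 1 TPM and the sum, nearly all of it Des, was between 13.7 TPM in ER stress and 36.2 TPM in oxidative stress. Genes known to answer each treatment rose in its library, with Hspa5, the main ER chaperone, going from 1165 TPM in the control to 12611 TPM in ER stress, except that for glucose the gene checked, Txnip, fell from 70.7 to 16.1 TPM. Txnip was lower still in osmotic stress, at 7.22 TPM, and Chac1, checked for glutamine, was higher in ER stress than in glutamine depletion, at 224 and 86.8 TPM. Hmox1, checked for arsenite, went from 266 TPM in the control to 6055 TPM in oxidative stress, and was also at 1802 TPM in ER stress.

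ER stress was the condition in which matrix genes fell. In that library 13 of the 40 genes, or 32.5%, were more than 2-fold below control, where 11.0% of all genes were. None of the 40 was more than 2-fold above control, where 8.60% of all genes were. Counted at any size, 35 of the 40 were below control, against 48.5% of all genes, and the median change was -0.73, against 0.00 over all genes. The ER stress library was the lowest of the 7 for 34 of the 40 genes, or 85%, which held for 24.1% of all genes. Fewer cells of a type and less RNA per cell cannot be told apart in these bulk samples. The sum of the fibroblast markers was also lowest in this library, but that list includes Fn1 and Sparc, which are among the 40. Of its collagen genes Col1a1 went from 3154 TPM in the control to 1740 TPM and Col3a1 from 1479 to 352 TPM. Of its genes outside the matrix, Vim went from 3568 to 1966 TPM and Thy1 from 777 to 517 TPM. Pdgfrb went from 129 to 57.6 TPM and Pdgfra from 29.9 to 22.6 TPM. Tubb3, a tubulin used as a neuronal marker, went from 26.0 TPM in the control to 127 TPM in ER stress, while Sox10 of the same list stayed below 1 TPM. The part of these shifts in the falls of the matrix genes was not tested.

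**Figure D1:**
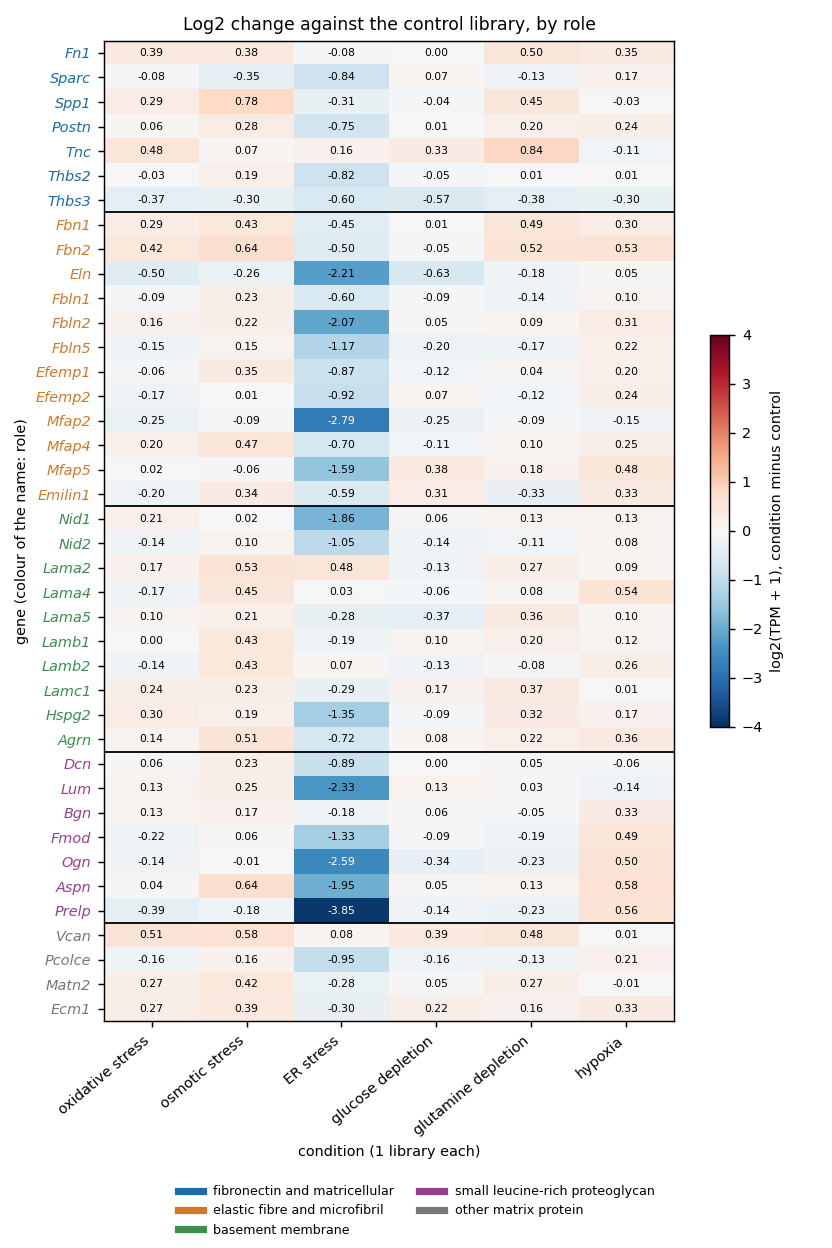
Log2 change of each of the 40 matrix genes (rows, grouped by role, name coloured by role) in each of the 6 conditions (columns, 1 library each), in log2(TPM + 1) of the condition minus the control. The ER stress column holds all 13 changes below -1, from -1.05 for Nid2 to -3.85 for Prelp, and the other 5 columns stay between -0.63 and 0.84.

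By the median the small leucine-rich proteoglycans had the lowest ER stress change of the 5 roles, although Mfap2, an elastic fibre gene, came second to Prelp among single genes. In ER stress 5 of these 7 genes fell, where 11.0% of all genes did, all 7 were below control, where 48.5% of all genes were, and their median change was -1.95. Prelp, whose product anchors basement membranes to the connective tissue below them, measured 48.7 TPM in the control, 37.1 in oxidative stress, 42.9 in osmotic stress, 2.45 in ER stress, 41.5 in glutamine depletion, 44.2 in glucose depletion and 72.3 in hypoxia. Its ER stress level was 5.03% of control, a log2 change of -3.85, and it moved from rank 30 to rank 40 among the 40 genes. Ogn, which encodes osteoglycin, measured 211 TPM in the control, 191 in oxidative stress, 210 in osmotic stress, 34.2 in ER stress, 179 in glutamine depletion, 167 in glucose depletion and 299 in hypoxia. The ER stress library stood far below the other 6 for both genes, and hypoxia gave the highest level of both.

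Lumican and asporin fell in the same library. Lum, whose product spaces collagen fibrils in the cornea and skin, measured 36.3 TPM in the control, 39.9 in oxidative stress, 43.4 in osmotic stress, 6.42 in ER stress, 37.1 in glutamine depletion, 39.7 in glucose depletion and 32.8 in hypoxia. Aspn, which encodes a collagen-binding protein with a stretch of aspartate residues, measured 147 TPM in the control, 152 in oxidative stress, 230 in osmotic stress, 37.2 in ER stress, 161 in glutamine depletion, 152 in glucose depletion and 221 in hypoxia. The log2 changes in ER stress were -2.33 for Lum and -1.95 for Aspn. Away from ER stress Lum kept to a narrow band, whereas Aspn was highest in osmotic stress and hypoxia. Fmod, which encodes fibromodulin, was at 109 TPM in the control, 42.8 in ER stress and 154 in hypoxia, with the other 4 libraries between 93.6 and 114 TPM, and its ER stress change was -1.33.

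Decorin and biglycan are close relatives that carry chondroitin or dermatan sulfate chains, and neither passed 2-fold in any condition. Dcn measured 72.7 TPM in the control, 75.7 in oxidative stress, 85.4 in osmotic stress, 38.9 in ER stress, 75.1 in glutamine depletion, 72.6 in glucose depletion and 69.5 in hypoxia. Its ER stress library was the lowest, at -0.89. Bgn was the most abundant gene of this family, at 3335 TPM in the control, 3643 in oxidative stress, 3746 in osmotic stress, 2941 in ER stress, 3225 in glutamine depletion, 3478 in glucose depletion and 4181 in hypoxia. Its change in ER stress was -0.18, and the 0.51 between its lowest and highest library was the narrowest span of the 7. With Bgn nearly level and Prelp falling, the ratio of their TPM within a library was 68.4 in the control and 1200 in ER stress, and between 57.9 and 98.3 in the other 5 libraries. The ratio of Dcn to Lum was 2.01 in the control, 6.06 in ER stress and between 1.83 and 2.12 in the other 5.

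Promoters are shown for the proteoglycan gene that fell most, for the family member that stayed nearest to control, and for Ogn and Aspn, which are neighbours on chromosome 13 and fell together. Each is the RefSeq window of GRCm38.p6 from 250 bases before to 50 bases after the transcript start, 5′ to 3′ on the gene's own strand. Capitals mark matches, on either strand, to the motifs searched. The windows lie at chr1:133921352-133921651 on the minus strand for Prelp, and on the plus strand at chrX:73483351-73483650 for Bgn, chr13:49607765-49608064 for Ogn and chr13:49544193-49544492 for Aspn.
Prelp: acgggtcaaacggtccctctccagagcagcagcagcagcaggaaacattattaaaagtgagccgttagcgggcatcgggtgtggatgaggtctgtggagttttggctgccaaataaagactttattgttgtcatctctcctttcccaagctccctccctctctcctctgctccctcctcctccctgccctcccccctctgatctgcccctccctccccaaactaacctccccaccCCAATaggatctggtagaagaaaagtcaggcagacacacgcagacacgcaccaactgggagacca
Bgn: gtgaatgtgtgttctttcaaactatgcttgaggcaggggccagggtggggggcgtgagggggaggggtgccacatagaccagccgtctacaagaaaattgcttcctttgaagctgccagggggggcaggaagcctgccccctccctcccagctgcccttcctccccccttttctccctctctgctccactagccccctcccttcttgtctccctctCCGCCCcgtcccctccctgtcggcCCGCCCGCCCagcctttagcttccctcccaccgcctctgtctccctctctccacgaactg
Ogn: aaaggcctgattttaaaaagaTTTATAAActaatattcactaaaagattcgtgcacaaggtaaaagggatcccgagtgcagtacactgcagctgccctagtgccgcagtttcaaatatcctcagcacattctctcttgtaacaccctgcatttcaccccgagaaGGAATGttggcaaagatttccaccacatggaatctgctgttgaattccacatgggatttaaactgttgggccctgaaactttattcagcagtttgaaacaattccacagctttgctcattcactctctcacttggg
Aspn: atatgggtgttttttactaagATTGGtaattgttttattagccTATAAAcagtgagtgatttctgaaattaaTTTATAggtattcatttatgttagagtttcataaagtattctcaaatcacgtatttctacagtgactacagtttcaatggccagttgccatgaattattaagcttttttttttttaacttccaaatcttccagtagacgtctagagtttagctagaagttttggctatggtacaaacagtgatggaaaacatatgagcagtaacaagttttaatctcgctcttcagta
The capitals are a CCAAT match in Prelp, matches to the reverse complement of GGGCGG in Bgn, overlapping TATAAA matches on both strands and a GGAATG match in Ogn, and TATAAA matches on both strands and the reverse complement of CCAAT in Aspn. The GC content of the windows was 55.3% for Prelp, 63.7% for Bgn, 42.3% for Ogn and 31% for Aspn.

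The same letters were counted in every window of the matrix genes. A window was found by symbol for 29 of the 40 genes, with 38 windows in all because some genes have several starts, and Fn1, Fbn2, Eln, Mfap4, Mfap5, Nid2, Lama4, Lamc1, Dcn, Lum and Matn2 had no entry. The 9 genes that fell in ER stress and had an entry gave 11 windows, the 20 others gave 27, and all genes gave 32851. CCAAT, the CCAAT box, was in 54.5% of the windows of genes that fell, 25.9% of those of the others and 37.4% of all windows. GGGCGG, the GC box, was in 45.5%, 66.7% and 35.7%. TATAAA, the letters of the TATA box, counted at any position in the window, was in 18.2%, 22.2% and 13.6%. GGAATG, bound by TEAD factors, was in 27.3% of the windows of genes that fell (Mfap2, Nid1 and Ogn), in none of the 27 others and in 14.7% of all. TGANTCA, bound by AP-1, was in none of the 11, in 7.41% of the others and in 7.81% of all. Neither TGACGTG, the core of an unfolded protein response element, nor the ER stress element, a longer motif that begins with the CCAAT letters, was in a window of the 29 genes, and they were in 2.01% and 0.119% of all windows. These shares describe letters in short windows and count few windows of matrix genes.

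Several of these proteoglycan genes lie near each other. Aspn (GRCm38, GENCODE M21, chr13:49544443-49567565) and Ogn (chr13:49608046-49624501) are 40.5 kb apart on the plus strand, with Omd, the osteomodulin gene, between them. Omd was not among the 40 and went from 12.3 TPM in the control to 0.536 TPM in ER stress, a change of -3.12. All 3 lie within Cenpp, a centromere protein gene on the opposite strand, which went from 7.15 to 2.74 TPM and shares 7 exon bases with Aspn. Past the end of Cenpp, Nol8 and Iars rose, by 1.30 and 1.01, so the falls did not extend to these neighbours. Prelp (chr1:133910304-133921414, minus strand) and Fmod (chr1:134037254-134048277, plus strand) are 116 kb apart, and around them Atp2b4 was at -1.35, Optc at -0.85 and Btg2 at -0.08. Dcn (chr10:97479609-97518143) and Lum (chr10:97565128-97572703) are 47.0 kb apart, with changes of -0.89 and -2.33. The next family members there, Kera and Epyc, were below 1 TPM in every library. Bgn lies on chromosome X, at chrX:73483602-73495933.

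**Figure D2:**
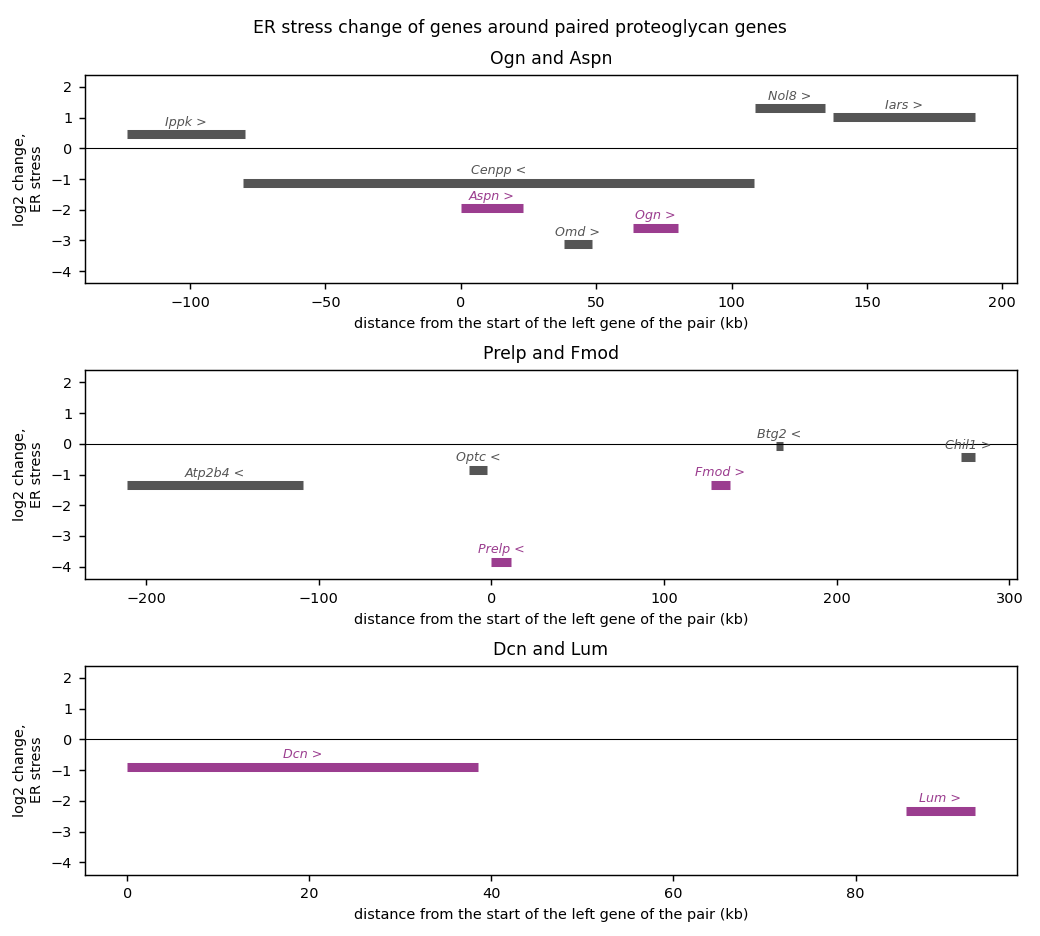
ER stress change (vertical axis, log2(TPM + 1) minus control) of the genes around the 3 proteoglycan pairs, each bar drawn over the gene's extent in kb from the start of the left gene of the pair, with matrix genes in purple, others in grey and arrowheads for strand. Aspn, Omd, Ogn and Cenpp lie between -1.12 and -3.12, while Nol8 and Iars to their right lie at 1.30 and 1.01, and only genes whose mean reached 2 TPM are drawn.

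Genes of elastic fibres and microfibrils were all below control in ER stress, where 48.5% of all genes were, and 5 of the 12 fell, where 11.0% of all genes did. Mfap2, a small glycoprotein bound to fibrillin microfibrils, measured 96.5 TPM in the control, 80.8 in oxidative stress, 90.9 in osmotic stress, 13.1 in ER stress, 90.9 in glutamine depletion, 81.1 in glucose depletion and 86.9 in hypoxia. Eln, the gene of elastin itself, measured 55.6 TPM in the control, 39.1 in oxidative stress, 46.2 in osmotic stress, 11.2 in ER stress, 48.9 in glutamine depletion, 35.6 in glucose depletion and 57.6 in hypoxia. Their ER stress changes were -2.79 and -2.21. Mfap2 was highest in the control, so that all 6 conditions were below it, whereas Eln reached its control level in hypoxia alone.

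Fibulins link elastin, microfibrils and cells. Fbln2 was the most abundant gene of this role, at 1438 TPM in the control, 1612 in oxidative stress, 1679 in osmotic stress, 341 in ER stress, 1534 in glutamine depletion, 1493 in glucose depletion and 1784 in hypoxia. The 5 other conditions were all above control and ER stress was at 23.7% of it, a change of -2.07. Fbln5, needed for elastin assembly, measured 624 TPM in the control, 560 in oxidative stress, 690 in osmotic stress, 277 in ER stress, 553 in glutamine depletion, 541 in glucose depletion and 725 in hypoxia, with a change of -1.17 in ER stress. Mfap5, the relative of Mfap2, measured 93.4 TPM in the control, 95.0 in oxidative stress, 89.7 in osmotic stress, 30.4 in ER stress, 106 in glutamine depletion, 122 in glucose depletion and 131 in hypoxia. Its fall in ER stress was -1.59, and its highest level was in hypoxia.

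The other 7 elastic fibre genes were between -0.45 and -0.92 in ER stress. Efemp2, which brings lysyl oxidase to elastin, came nearest to 2-fold, with 680 TPM in the control and 359 in ER stress. Efemp1 was at -0.87, Mfap4 at -0.70 and Emilin1, an elastin-associated glycoprotein, at -0.59. Fbln1 had the narrowest span of the role over the 6 conditions, 0.83 in log2, with 30.0 TPM in the control, 28.1 in oxidative stress, 35.4 in osmotic stress, 19.4 in ER stress, 27.0 in glutamine depletion, 28.2 in glucose depletion and 32.1 in hypoxia. The fibrillins, which form the microfibril backbone, had smaller ER stress changes than Mfap2 and Mfap5. Fbn1 was at 221 TPM in the control and 162 in ER stress, and Fbn2 at 33.6 and 23.4 TPM, with changes of -0.45 and -0.50. The ratio of Fbn1 to Mfap2 TPM was 2.29 in the control, 12.3 in ER stress and between 2.75 and 3.41 in the other 5 libraries.

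**Figure D3:**
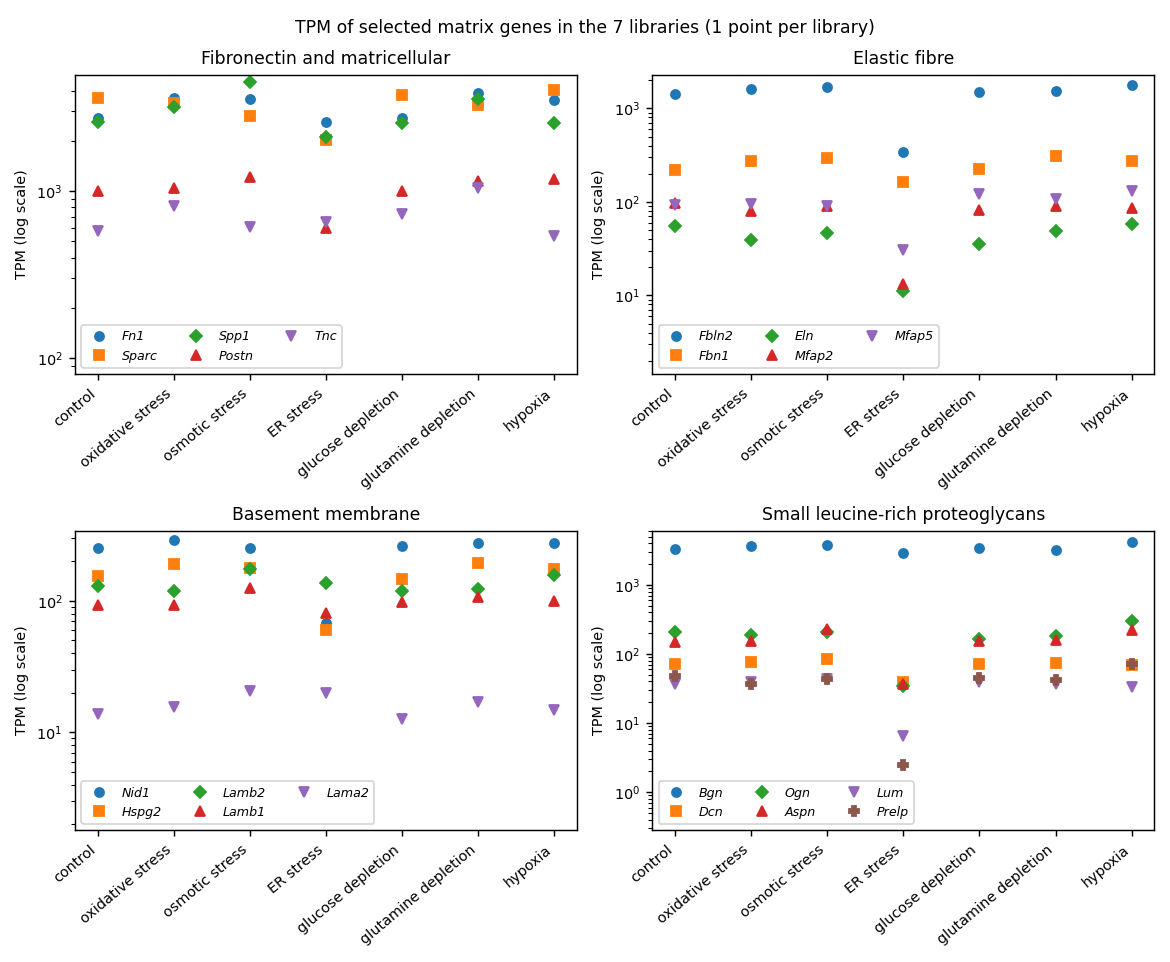
TPM (log scale) of 21 selected matrix genes in the 7 libraries, 1 point per library, in 4 panels by role. In ER stress Fbln2, Eln, Mfap2, Mfap5, Nid1, Hspg2, Ogn, Aspn, Lum and Prelp drop away from their other 6 points, while Bgn, Fn1 and the laminin chains Lamb2, Lamb1 and Lama2 stay near them.

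Basement membrane genes are given here as the laminin chains and the other 4 members, a split made with earlier results of these data known. None of the 6 laminin chains fell in ER stress, a count near the 11.0% of all genes. Their changes were between -0.29 and 0.48 with a median of -0.08. Of the other 4 members 3 fell, beside the same 11.0%, with a median of -1.20. Nid1, whose product bridges the laminin and collagen IV networks, measured 251 TPM in the control, 291 in oxidative stress, 254 in osmotic stress, 68.3 in ER stress, 275 in glutamine depletion, 262 in glucose depletion and 275 in hypoxia. Hspg2, the gene of perlecan, a heparan sulfate proteoglycan, measured 155 TPM in the control, 192 in oxidative stress, 178 in osmotic stress, 60.5 in ER stress, 194 in glutamine depletion, 146 in glucose depletion and 175 in hypoxia. For both genes the ER stress library stood well below the other 6. Their changes were -1.86 and -1.35. Nid2, the second nidogen, passed the threshold narrowly, with 53.9 TPM in the control, 25.5 in ER stress and a change of -1.05, and Agrn, the gene of agrin, did not, with 17.2 and 10.1 TPM and -0.72.

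Laminins are trimers of an alpha, a beta and a gamma chain. Lamb2 had the narrowest span of the role over the 6 conditions, 0.57, and measured 130 TPM in the control, 118 in oxidative stress, 176 in osmotic stress, 136 in ER stress, 123 in glutamine depletion, 119 in glucose depletion and 156 in hypoxia. Lama2 was the least abundant of the 40 genes in the control and the one furthest above control in ER stress, at 13.9 TPM in the control, 15.7 in oxidative stress, 20.5 in osmotic stress, 19.7 in ER stress, 17.0 in glutamine depletion, 12.7 in glucose depletion and 14.8 in hypoxia. Its change of 0.48 in ER stress was within the 2-fold threshold. Lama4 was at 39.4 TPM in the control and 40.3 in ER stress, Lamb1 at 92.2 and 80.8, Lamc1 at 99.8 and 81.4, and Lama5 at 27.9 and 22.7. Lamb1 and Nid1 encode proteins of the same network, and the ratio of their TPM was 0.367 in the control, 1.18 in ER stress and between 0.318 and 0.490 in the other 5 libraries.

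Fibronectin and the matricellular genes were below control in ER stress in 6 of 7 cases, beside 48.5% of all genes, and none fell, beside 11.0%. Sparc, a collagen-binding calcium protein, measured 3592 TPM in the control, 3391 in oxidative stress, 2824 in osmotic stress, 2011 in ER stress, 3284 in glutamine depletion, 3764 in glucose depletion and 4048 in hypoxia. It was the most abundant of the 40 genes in the control and ranked 4 in ER stress, with a change of -0.84. Fn1 measured 2742 TPM in the control, 3589 in oxidative stress, 3567 in osmotic stress, 2600 in ER stress, 3878 in glutamine depletion, 2740 in glucose depletion and 3491 in hypoxia. Its ER stress change was -0.08, and 4 of the other 5 conditions were above control by 0.35 to 0.50. The ratio of Fn1 to Fbln2 TPM was 1.91 in the control, 7.63 in ER stress and between 1.84 and 2.53 in the other 5 libraries. Postn, the gene of periostin, was at 1002 TPM in the control and 597 in ER stress, and Thbs2, a thrombospondin, at 211 and 119 TPM, changes of -0.75 and -0.82.

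Tenascin C and osteopontin were the matricellular genes that varied most outside ER stress. Tnc measured 581 TPM in the control, 810 in oxidative stress, 608 in osmotic stress, 650 in ER stress, 1037 in glutamine depletion, 732 in glucose depletion and 537 in hypoxia. It was highest in glutamine depletion, at 0.84, the largest change above control of any of the 40 genes in any condition, and it moved from rank 10 in the control to rank 5 in ER stress. Spp1, which encodes osteopontin, measured 2608 TPM in the control, 3190 in oxidative stress, 4486 in osmotic stress, 2104 in ER stress, 3568 in glutamine depletion, 2543 in glucose depletion and 2556 in hypoxia. Osmotic stress gave its highest level, at 0.78. Thbs3, another thrombospondin, differed in that the control was its highest library, at 48.3 TPM, with 37.2 in oxidative stress, 39.0 in osmotic stress, 31.6 in ER stress, 37.0 in glutamine depletion, 32.2 in glucose depletion and 39.0 in hypoxia. Its 6 conditions lay within 0.29 of each other in log2, the narrowest span of all 40 genes, so that its place below control rests on the single control library.

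None of the 4 other matrix proteins fell in ER stress, a count near the 11.0% of all genes. Pcolce, which enhances the trimming of procollagen, was the most abundant, with 742 TPM in the control, 663 in oxidative stress, 831 in osmotic stress, 383 in ER stress, 680 in glutamine depletion, 663 in glucose depletion and 856 in hypoxia. Its change of -0.95 in ER stress was the nearest to the threshold among the 27 genes that did not pass it. Vcan, the gene of versican, a large hyaluronan-binding proteoglycan, had its lowest level in the control, with 51.2 TPM there, 73.2 in oxidative stress, 76.9 in osmotic stress, 54.1 in ER stress, 72.0 in glutamine depletion, 67.5 in glucose depletion and 51.7 in hypoxia. It was the gene furthest above control in oxidative stress and in glucose depletion, at 0.51 and 0.39. Matn2, the gene of matrilin-2, and Ecm1 were at -0.28 and -0.30 in ER stress.

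Outside ER stress no matrix gene passed 2-fold. The 200 changes of the 40 genes in the other 5 conditions were between -0.63 and 0.84, and 5 of them were beyond 1.5-fold, namely Spp1, Aspn and Fbn2 in osmotic stress, Tnc in glutamine depletion and Eln in glucose depletion. Of all genes 3.94% rose and 4.85% fell in oxidative stress, 3.08% rose and 8.76% fell in osmotic stress, 1.83% rose and 2.41% fell in glucose depletion, 3.21% rose and 3.21% fell in glutamine depletion, and 3.57% rose and 2.64% fell in hypoxia. Counts of 0 among 40 genes stand beside these low shares, and with 1 library per condition smaller changes cannot be separated from the variation between cultures.

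**Figure D4:**
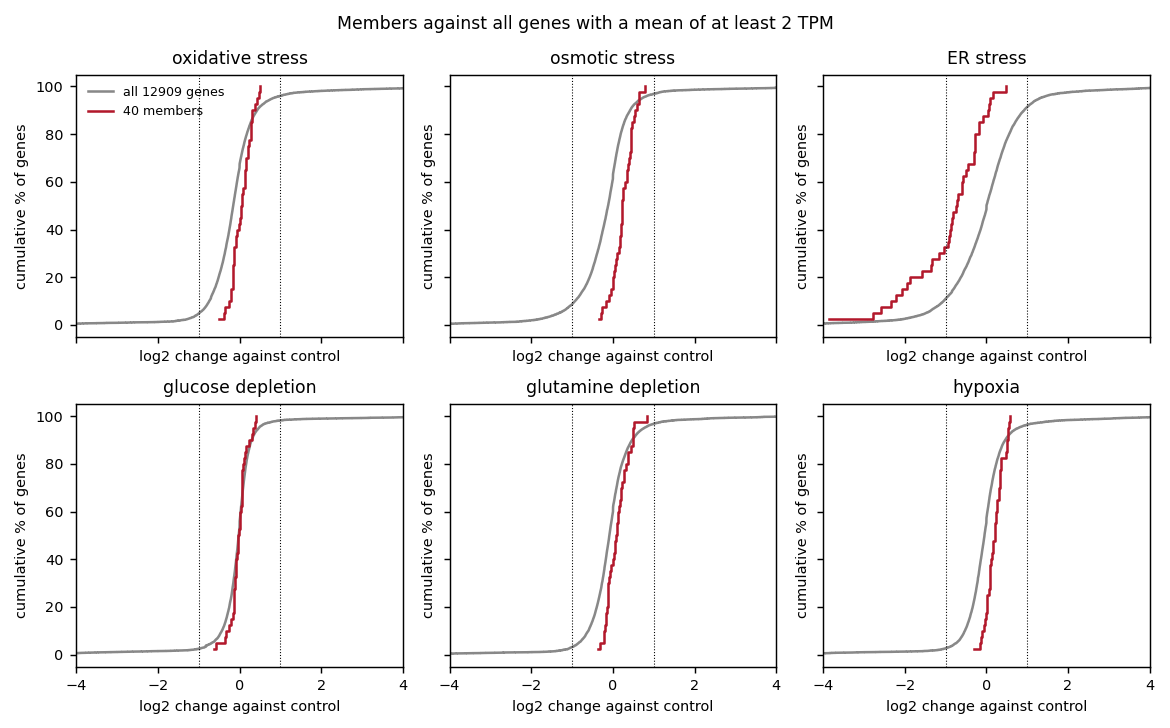
Cumulative share of genes (vertical axis, %) with a log2 change against control up to the value on the horizontal axis, for the 40 matrix genes (red) and all 12909 genes (grey), 1 panel per condition, with dotted lines at 2-fold. In ER stress the red curve lies left of the grey over most of its range (medians -0.73 and 0.00), in osmotic stress and hypoxia it lies to the right (0.23 and -0.12, 0.20 and -0.05), and in glucose depletion both medians are -0.02.

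Osmotic stress and hypoxia held the highest levels of most matrix genes. For 31 of the 40, or 77.5%, the highest of the 7 libraries was one of these, which held for 29.2% of all genes. The osmotic stress library was above control for 33 of the 40 genes, where 36.7% of all genes were, and was the highest of the 7 for 19, which held for 1748 of the 12909 genes. The median change was 0.23, against -0.12 for all genes. After Spp1 the genes furthest above control were Aspn and Fbn2, both at 0.64. Fbn2, the fibrillin of embryonic tissue, measured 33.6 TPM in the control, 45.2 in oxidative stress, 52.7 in osmotic stress, 23.4 in ER stress, 48.7 in glutamine depletion, 32.5 in glucose depletion and 49.0 in hypoxia. All 10 basement membrane genes were above control in osmotic stress, by 0.02 to 0.53, and the genes furthest below were Sparc at -0.35, Thbs3 at -0.30 and Eln at -0.26.

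Hypoxia was above control for 33 of the 40 genes, where 42.8% of all genes were, and gave the highest of the 7 levels for 12, or 30%, which held for 15.7% of all genes. The median change was 0.20, against -0.05. The small leucine-rich proteoglycans had a median of 0.49, with Aspn at 0.58, Prelp at 0.56, Ogn at 0.50 and Fmod at 0.49, while Lum and Dcn were at -0.14 and -0.06. These 4 genes were also among the 13 that fell in ER stress. Lama4, an alpha chain of vessel and mesenchymal laminins, measured 39.4 TPM in the control, 35.0 in oxidative stress, 54.2 in osmotic stress, 40.3 in ER stress, 41.8 in glutamine depletion, 37.8 in glucose depletion and 57.7 in hypoxia. Thbs3, Lum and Mfap2 were furthest below control, at -0.30, -0.14 and -0.15.

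In the other 3 conditions the genes were spread on both sides of control. Oxidative stress had 23 genes above and 17 below, with a median of 0.05 against -0.16 for all genes, and its lowest genes were Eln at -0.50, Prelp at -0.39 and Thbs3 at -0.37. Glutamine depletion had 25 above and 15 below, with a median of 0.09 against -0.09. Behind Tnc stood Fbn2 at 0.52 and Fn1 at 0.50, and Thbs3, Emilin1 and Ogn were lowest at -0.38, -0.33 and -0.23. Emilin1 measured 107 TPM in the control, 93.1 in oxidative stress, 136 in osmotic stress, 71.2 in ER stress, 85.5 in glutamine depletion, 133 in glucose depletion and 135 in hypoxia. Glucose depletion had 18 above and 22 below, with a median of -0.02 for the 40 genes and for all genes, and Eln, Thbs3 and Lama5 were lowest at -0.63, -0.57 and -0.37. Lama5 measured 27.9 TPM in the control, 29.8 in oxidative stress, 32.5 in osmotic stress, 22.7 in ER stress, 35.9 in glutamine depletion, 21.4 in glucose depletion and 29.8 in hypoxia. Changes were also counted from the median of all genes, above which about 50% of all genes lay in each condition. By this count 31 of the 40 genes were above in oxidative stress, 36 in osmotic stress, 28 in glutamine depletion, 20 in glucose depletion, 35 in hypoxia and 5 in ER stress.

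The 40 genes took 2.03% of the TPM of the control library, 2.22% in oxidative stress, 2.39% in osmotic stress, 1.39% in ER stress, 2.28% in glutamine depletion, 2.07% in glucose depletion and 2.37% in hypoxia. The ER stress share was 68.3% of the control share. By role it was 39.7% of control for elastic fibre genes, 62.0% for basement membrane, 62.9% for the other matrix proteins, 75.2% for fibronectin and the matricellular genes and 78.4% for the small leucine-rich proteoglycans. Bgn alone made up most of the last sum. Fn1, Sparc, Spp1 and Bgn together made 1.23% of the control library and kept 78.7% of that in ER stress, and the remaining 36 genes kept 52.6%. TPM sum to a fixed total in each library, and Hspa5 went from 1165 to 12611 TPM in ER stress, while the median change of all genes was 0.00. The part of this gain in the lower share was not tested.

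**Figure D5:**
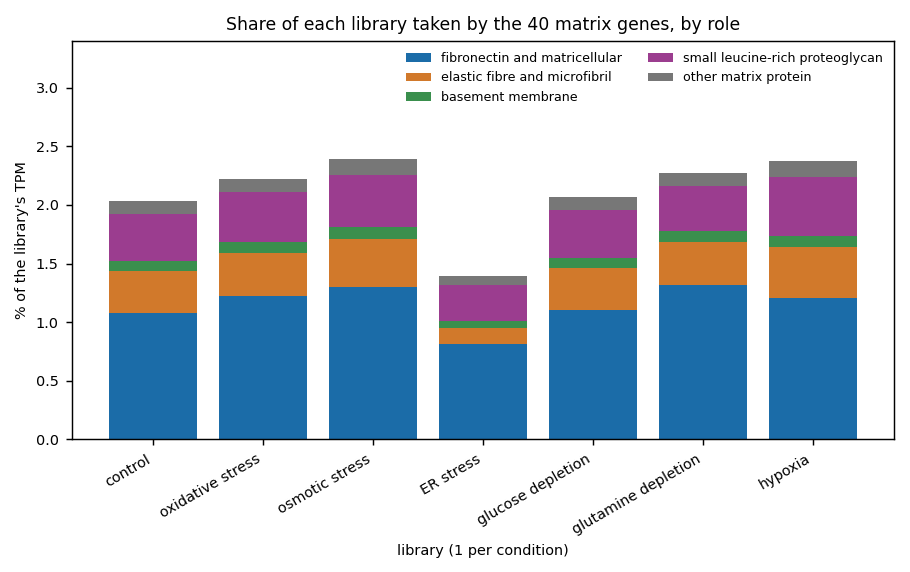
Share of each library's TPM (vertical axis, %) taken by the 40 matrix genes, stacked by role, in the 7 libraries (1 bar each). The bar of ER stress is the shortest at 1.39%, against 2.03% in the control, and those of osmotic stress and hypoxia are the tallest at 2.39% and 2.37%.

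Other matrix genes outside the 40, taken from a list of 75 non-collagen matrix genes, give the wider setting. Of these 74 were in the table and 42 had a mean that reached 2 TPM. In ER stress 19 of the 42, or 45.2%, fell and 1 rose, with a median of -0.87, beside 11.0% and 8.60% of all genes and a median of 0.00. Dermatopontin (Dpt) and Omd fell most, at -3.12 each, with Dpt going from 10.7 to 0.350 TPM. Slit2, a secreted guidance protein, was the gene that rose, from 175 to 383 TPM. Hmcn1, the gene of hemicentin, rose by 1.08 in oxidative stress and by 1.06 in osmotic stress. In hypoxia Spon2 rose by 1.37. Spon2 was among the 19 and was listed at 0 in ER stress, from 3.11 TPM in the control. None of the 42 passed 2-fold in glucose or glutamine depletion.

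Some of the 40 genes share exon bases with another gene. In GENCODE M21 this held for 17 of them, and for 15 the partner had a row in the table and lay on the opposite strand. The partner exceeded 10% of the matrix gene's control level in 3 cases, which were Mtx1 for Thbs3 at 102 TPM, Mapk7 for Mfap4 at 30.6 TPM and Rtraf for Nid2 at 169 TPM. Reads of these pairs may have been divided between the genes, so the levels of Thbs3, Mfap4 and Nid2 are uncertain. None of the other 12 genes that fell in ER stress has a partner above 10% of its level.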

How the data were processed

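Stranded mRNA libraries of 7 MEF cultures, 1 per condition, were sequenced. Per the submitters' processing notes the authors used kallisto 0.43.1 with GRCm38, and per the study's methods the transcripts were those of Ensembl release 90 at default settings, which do not use strand. The values deposited by the authors are TPM, added up per gene over its transcripts, and each library sums to 1000000. Read depth is therefore unknown and counting error cannot be given.

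Samples were grouped by their labels. From the deposited TPM, log2(TPM + 1) of the control was subtracted from that of each condition with Python 3.11.15, numpy 2.4.6 and pandas 2.3.3. The pseudocount of 1 TPM and the 2-fold threshold follow the study, and the background was the genes whose mean reached 2 TPM. The counting steps were also run on simulated libraries with set changes, which checks the counting and says nothing about the spread between real cultures. Positions came from GENCODE M21, in which 132 of the 12909 genes were not found, and promoters from RefSeq.

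The 40 genes, the roles, the other lists and the alternatives were chosen with earlier results of these data known. Genes named with values in every library are Fn1 and Sparc, and the most abundant and the least variable gene of each role. The 3 furthest above and below control in each condition are also named so. Some of the genes that fell, and Dcn, which did not fall, were added after their values were seen. Of the other matrix genes up to 2 per direction and condition are named, and some genes of the lists are not reported here.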

Additional observations from a re-analysis of the deposited data

How the results depend on the processing

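The count of 13 genes that fell in ER stress stayed within 1.5 times under pseudocounts of 0.1 and 5 TPM, no filter or a mean minimum of 10 TPM, changes counted from the median of all genes, TPM rescaled without the mitochondrially encoded genes, a 3-fold threshold and the glucose depletion library as the reference. With a 1.5-fold threshold it was 25 (21.3% of all genes), and 3 genes were then called up in osmotic stress (6.56%), 1 down in glucose depletion (6.23%) and 1 up in glutamine depletion (7.47%). With the mean of the other 6 libraries as the reference, an alternative added after seeing the data, 2 genes rose in hypoxia, Ogn at 1.05 and Prelp at 1.36, where 4.14% of all genes did. Nid2 lost its call with a pseudocount of 5 TPM (-0.95), and with the glucose depletion library as the reference Fbln5 (-0.96) and Nid2 (-0.91) lost theirs. Counted from the median of all genes, the median of the 40 genes was 0.35 in osmotic stress and 0.21 in oxidative stress, and against the mean of the other 6 libraries it was 0.37 in osmotic stress and -0.85 in ER stress. In glucose depletion the median of -0.02 was 0.00 from the median of all genes. Over the 11300 protein-coding genes alone 9.80% fell and 7.10% rose in ER stress.

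Each condition is 1 library, so leaving out a replicate was not possible, and the spread between cultures is unknown. No paired analysis was possible because no condition has more than 1 library and no result comes from a test. Without read counts, the lowest levels, such as 2.45 TPM for Prelp in ER stress, have no known precision.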

Other observations

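The genes that fell in ER stress had, by the median, shorter coding sequences than the rest of the 40. The median coding length was 1134 bases for the 13 genes that fell, with a range from 492 for Mfap5 to 13149 for Hspg2, and 3051 bases for the other 27. Across the 40 genes the ER stress change and the coding length had a Spearman rho of 0.55 and a Pearson r of 0.45, against a rho of 0.06 over the 11300 protein-coding genes. These are descriptions across genes of 1 library pair, and the points share the same control and ER stress libraries. The small leucine-rich proteoglycans, which held 5 of the 13, are all short proteins. The 6 laminin chains are all long, and none of them fell, a count near the 11.0% of all genes. With the control level the rho was -0.10 over the 40 genes and -0.07 over the protein-coding genes.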
